A study of Homo sapiens with 8 samples.

Results

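THZ1, a small molecule that binds the kinase CDK7 covalently, was compared with its solvent DMSO in BCPAP, an established human thyroid carcinoma line. The comparison takes all genes of the BCPAP tables, 11900 of the 12715 genes listed for either line of the study, and 4 of its 8 RNA-seq libraries. BCPAP cells, grown in RPMI 1640 with serum, received 100 nM THZ1 for 6 h (2 libraries) or DMSO (2 libraries, for which the labels give no time). The other 4 libraries are the same treatments in CAL-62, a second thyroid carcinoma line grown in DMEM with more serum. RNA was poly(A)-selected with oligo(dT). The labels do not say whether replicates were separate cultures, nor what replicate numbers 1 and 2 mark, so the p-values rest on a spread between libraries that may be technical only. Each line stands for 1 tumour. The labels call both lines anaplastic carcinoma, while BCPAP is known as a line from a papillary carcinoma.

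CDK7, cyclin H and MAT1 form the kinase of TFIIH, the general transcription factor that opens the promoter. This kinase phosphorylates the tail of the largest RNA polymerase II subunit as the polymerase leaves the promoter, and it also activates cell-cycle kinases. THZ1 can also bind the related kinases CDK12 and CDK13, which act during elongation. When transcription slows, messages with short half-lives (many encode transcription factors and signalling proteins) are depleted before stable ones such as those of ribosomal proteins.

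Values below are the deposited RPKM-type levels (reads per gene, scaled to gene length and to a library total). A change is THZ1 minus DMSO in log2(value + 1), a scale that understates the change of low genes. It is given within replicate number 1, within number 2, or as their mean. DMSO libraries 1 and 2 held 18576045 and 18968718 reads in listed genes, and THZ1 libraries 1 and 2 held 18479199 and 19337482. Only genes with a DMSO mean above 1 are listed, so a gene that THZ1 turned on from below that level is outside the tables. Of 13 thyroid differentiation genes, the transcription factors PAX8, NKX2-1, FOXE1 and HHEX were listed in BCPAP. The genes of thyroid hormone production and its control (TG, TSHR, SLC5A5, DIO1 and DIO2) were not. Of 6 epithelial markers KRT7, KRT8 and KRT18 were listed. Of the markers of other cell types, 1 of 8 blood genes (CD68, 50.4 and 57.9 under DMSO, 58.0 and 75.1 after THZ1), 1 of 7 fibroblast genes (COL1A1, between 6.08 and 7.78) and 0 of 6 endothelial genes were listed.

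Most genes differed the same way in both replicate numbers, but few by as much as 2-fold. Of 11716 genes tested, 5067 were higher after THZ1 in both numbers (43.2%) and 3526 were lower in both (30.1%). Of the 8109 with a mean of at least 5, 50.3% were higher and 23.8% lower in both, with a median change of 0.12. In 2567 of the 11716 genes both THZ1 libraries lay above both DMSO libraries (21.9%), and in 1906 both lay below (16.3%). None passed the test: limma called 0 genes at an adjusted p under 0.05 (0%; smallest Benjamini-Hochberg adjusted p = 0.935), 465 had an unadjusted p under 0.05 (3.97%; 130 higher and 335 lower), and limma-voom, run on the recovered reads, called 0 as well (442 at an unadjusted p under 0.05). The directions below are therefore descriptions of these 4 libraries. An exact two-sided permutation test of 2 libraries against 2 cannot go below p = 0.333.

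The replicate number parted the 4 BCPAP libraries more than the treatment did. Summed over genes, 60.5% of the squared deviations lay between the numbers, 31.3% between THZ1 and DMSO, and 8.20% in their interaction. The main fit has no term for the number, so this difference is part of the spread behind its SEs and p-values. Across genes, which are not independent replicates, the change in number 1 correlated with that in number 2 at r = 0.595. The SD of the change over genes was 0.34 in number 1 and 0.41 in number 2, and the median change was 0.041 and 0.078.

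**Figure D1:**
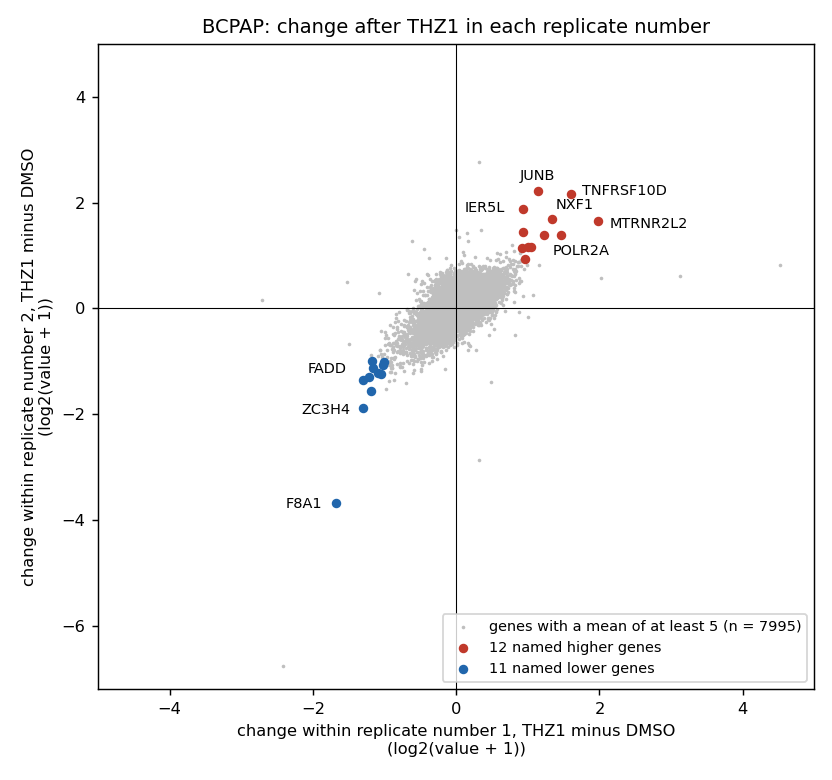
Change after THZ1 in BCPAP within replicate number 1 (horizontal axis) and within number 2 (vertical axis), in log2(value + 1); each grey point is 1 of 7995 genes with a mean of at least 5, small RNA features left out. Red and blue mark the 12 named higher and 11 named lower genes, which lie away from the main cloud at the upper right and lower left, with F8A1 furthest down of those named.

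How many genes count as higher or lower depended on the scaling. Over all tested genes the median was 0.068 at the deposited scaling. With the cytosolic ribosomal protein genes held level it was -0.15, and with the mitochondrially encoded genes held level -0.28. The counts higher and lower in both numbers then became 1265 and 5234, or 473 and 7867, in place of 5067 and 3526. Changes are therefore best read against the median of all genes. Each list whose median is said below to turn negative with a reference stayed above the median of all genes with both references. The Mediator, YAP and TEAD, G2 and mitosis, chromatin and clock medians also turned negative but lay below that of all genes. Relative to it they ranged from -0.012 to -0.075 with the ribosomal protein reference and from -0.019 to -0.081 with the mitochondrial one. The S-phase median was at 0.0075 and -0.0015.

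A change of at least 2-fold in both numbers, among 8109 listed genes with a mean of at least 5, was found in 9 genes higher (0.111%) and 16 lower (0.197%). With ribosomal protein genes as reference the split was 5 and 31, and with mitochondrially encoded genes 4 and 68. Within number 1 alone 15 genes were at least 2-fold higher (0.185%) and 39 lower (0.481%), and within number 2 alone 38 (0.469%) and 62 (0.765%). Just inside the limit were LOC100505487 (nearer change 1.003) and DOK1 (-1.01). Just outside were FAM107B (0.94), ABHD16B (-0.997) and the replication gene GINS1 (-0.98).

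Genes higher in both numbers included POLR2A, NXF1, GTF2B and HEXIM1, whose products make, regulate or export messenger RNA. GTF2B was named only through a search of promoters for the TATA-box letters TATAAA. The same search found NXF1, HEXIM1 and JUNB. The search covered both strands of the 250 bases before each RefSeq start (GRCh38.p14), for the 63 of 87 genes at least 1.5-fold higher in both numbers that had a promoter in the table. TATAAA stood anywhere in these 250 bases, on either strand, in 7 of the 63 (11.1%). It lay wholly between 40 and 21 bases before the start, on the gene's own strand, in 4 of the 63. Of all 27305 promoters in the table, 2.48% hold it there and 11.1% anywhere in the 250 bases. Promoters could be matched for only 72.4% of the 87 genes, under the 80% set as the least for a comparison, so the share of these genes with the motif is not compared with the rest. The 4 stretches, the 60 bases before each start with TATAAA in capitals, are shown because these genes are among those described next.
NXF1, chr11:62805441-62805500, minus strand: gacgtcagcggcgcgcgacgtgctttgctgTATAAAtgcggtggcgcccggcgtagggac
JUNB, chr19:12791426-12791485, plus strand: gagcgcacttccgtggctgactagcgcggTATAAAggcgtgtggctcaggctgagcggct
HEXIM1, chr17:45148415-45148474, plus strand: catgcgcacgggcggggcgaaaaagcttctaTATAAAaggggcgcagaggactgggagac
GTF2B, chr1:88891568-88891627, minus strand: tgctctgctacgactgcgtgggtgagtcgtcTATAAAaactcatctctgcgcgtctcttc
The motif begins 30, 31, 29 and 29 bases before the start in that order (-30, -31, -29 and -29). A match of letters is not evidence that the site is used. The 4 genes were picked by this search after their changes had been seen.

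POLR2A encodes the largest subunit of RNA polymerase II, the protein whose tail the TFIIH kinase phosphorylates. Its level was 63.9 and 55.8 in DMSO libraries 1 and 2, and 150.4 and 148 in THZ1 libraries 1 and 2. Both THZ1 libraries lay more than 2-fold above both DMSO libraries, and the pairs were close to each other. The change was 1.22 within number 1 and 1.39 within number 2 (mean 1.31, SE 0.35, limma adjusted p = 0.935).

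NXF1, the main export receptor for messenger RNA, had 22.3 and 16.5 under DMSO and 57.6 and 55.1 after THZ1. The groups were far apart, and the change was 1.33 and 1.68 in the 2 numbers (mean 1.51, SE 0.38, limma adjusted p = 0.935). HEXIM1, which holds the elongation kinase P-TEFb in an inactive complex, had 12.5 and 17.8 under DMSO and 21.6 and 28.6 after THZ1. Its changes, 0.75 and 0.66, were alike in the 2 numbers although the numbers themselves differed in level. GTF2B, the general factor TFIIB, had 18.3 and 10.2 under DMSO and 28.7 and 17.7 after THZ1. Here the groups overlapped, because number 2 was lower than number 1 in both treatments, and only the within-number changes of 0.63 and 0.74 show the difference. JUNB, an AP-1 transcription factor, had 23.7 and 19.6 under DMSO and 53.5 and 95.6 after THZ1. The groups were apart, but THZ1 library 2 was far higher than THZ1 library 1, with changes of 1.14 and 2.23.

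CDK7 itself differed little. It had 20.8 and 18.1 under DMSO and 22.1 and 18.9 after THZ1, with overlapping groups and changes of 0.09 and 0.06. Its partner cyclin H (CCNH) had 30.7 and 23.5 under DMSO and 40.9 and 36.5 after THZ1, groups apart and changes of 0.41 and 0.61. CCNT1 and CCNT2, cyclins of P-TEFb, were likewise above both DMSO libraries, with changes of 0.63 and 0.60 for CCNT1 and of 0.73 and 0.39 for CCNT2. MNAT1 (MAT1), the other partner of CDK7, had changes of 0.14 and 0.29 with overlapping groups, and its mean change turned negative with either reference. These 4 genes were picked after their values were seen. CDK12 (0.25 and -0.18) and CDK13 (0.38 and -0.01) changed sign between the numbers. With either reference above the mean changes of CDK7, CDK12 and CDK13 turned negative. The list of TFIIH subunits, transcription kinases and their partners had 24 tested members. In both numbers 12 were higher and 4 lower (50% and 16.7%). The shares were 43.2% and 30.1% of all genes, and 50.3% and 23.8% of genes with a mean of at least 5. The list median was 0.13 at the deposited scaling, against 0.068 for all genes and 0.12 for genes with a mean of at least 5. It was -0.092 with the ribosomal protein reference and -0.22 with the mitochondrial one, against -0.15 and -0.28 for all genes. The lowest member of the list was GTF2H1, the p62 core subunit of TFIIH, with groups apart and changes of -0.40 and -0.45. It had 17.5 and 15.6 under DMSO and 13.0 and 11.1 after THZ1. LARP7, which binds the 7SK RNA of the HEXIM1 complex, had changes of -0.30 and -0.30 with overlapping groups. Leaving out each BCPAP library in turn, its mean change ranged from -0.65 to 0.044.

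Mediator links activators to the polymerase. Of its 32 members, 15 were higher in both numbers and 8 lower (46.9% and 25.0%), near the 43.2% and 30.1% of all genes, with a median of 0.078 against 0.068 for all genes. MED26, a subunit tied to elongation factors, had 4.01 and 4.87 under DMSO and 7.20 and 8.84 after THZ1, and MED13L of the kinase module had 10.8 and 10.3 against 16.6 and 14.5. MED11 and MED22, subunits of the head, were lower, with changes of -0.77 and -0.57 for MED11 and of -0.52 and -0.58 for MED22. Groups of these 4 genes, named as the 2 highest and the 2 lowest of the list, did not overlap. Over the list the groups were apart in 7 of 32 genes upward and 6 downward (21.9% and 18.8%). Of all genes 21.9% and 16.3% were.

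The other genes furthest up in both numbers included TNFRSF10D, TOB1 and SAT1. TNFRSF10D encodes a decoy receptor that binds the death ligand TRAIL without passing on its signal. It had 8.19 and 4.74 under DMSO and 26.8 and 24.8 after THZ1. Both THZ1 libraries were alike and stood more than 3 times above the higher DMSO library, with changes of 1.60 and 2.17 (mean 1.88, SE 0.48, limma adjusted p = 0.935).

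TOB1, an antiproliferative protein that recruits a deadenylase to messenger RNAs, had 7.65 and 7.38 under DMSO and 16.9 and 17.7 after THZ1. Replicates agreed closely in both groups, and the changes were 1.05 and 1.16. SAT1, the acetyltransferase that starts polyamine breakdown, had 15.8 and 16.01 under DMSO and 30.9 and 36.6 after THZ1. Again the groups were far apart, with changes of 0.93 and 1.15. C1orf63 (RSRP1), an arginine- and serine-rich protein, had 19.1 and 20.6 against 37.4 and 57.8. IER5L, of the immediate early response 5 family, had 4.06 and 4.66 under DMSO and 8.65 and 19.9 after THZ1, and like JUNB it was highest in THZ1 library 2. FAM107B (changes 0.96 and 0.94) and the uncharacterised loci MGC12916 (1.47 and 1.40) and LOC100505487 (1.003 and 1.17) complete the set together with MTRNR2L2. MTRNR2L2 is a nuclear gene copied from mitochondrial 16S RNA. Its level was 10.8 and 35.5 under DMSO and 45.6 and 114 after THZ1, but it is uncertain, since reads of the mitochondrial RNA could be counted to it.

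**Figure D2:**
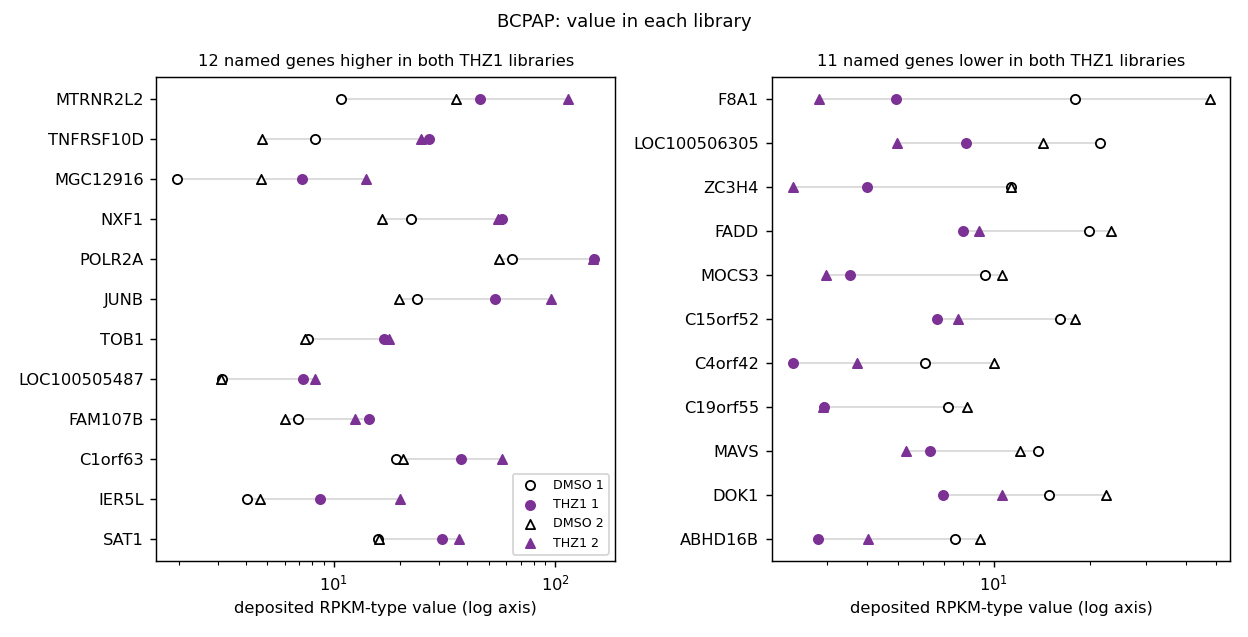
Deposited RPKM-type value (log axis) of the 12 named higher genes (left) and the 11 named lower genes (right) in each of the 4 BCPAP libraries; open symbols are DMSO, filled symbols THZ1, circles replicate number 1 and triangles number 2, and grey lines span the 4 values. Filled and open symbols do not overlap for any of these genes, which were chosen for that, and DMSO libraries 1 and 2 of F8A1 lie far apart.

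The genes furthest down in both numbers included FADD, ZC3H4 and MAVS. FADD couples death receptors to caspase 8. It had 19.9 and 23.3 under DMSO and 8.02 and 8.95 after THZ1. The THZ1 libraries stood below 10 and the DMSO libraries near or above 20, with changes of -1.21 and -1.29 (mean -1.25, SE 0.21, limma adjusted p = 0.935).

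ZC3H4, a zinc finger protein that limits unproductive noncoding transcription, had 11.3 and 11.4 under DMSO and 4.002 and 2.33 after THZ1. The DMSO libraries were nearly equal, and THZ1 library 2 was the lower of the THZ1 libraries, with changes of -1.30 and -1.89 (mean -1.60, SE 0.31, limma adjusted p = 0.935). MOCS3, an enzyme of molybdenum cofactor synthesis, had 9.37 and 10.6 against 3.53 and 2.96. MAVS, the mitochondrial adaptor of the RNA sensors RIG-I and MDA5, had 13.8 and 12.1 under DMSO and 6.31 and 5.29 after THZ1, with changes of -1.02 and -1.06. DOK1, a docking protein downstream of tyrosine kinases, had 14.9 and 22.4 against 6.92 and 10.6.

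The less characterised genes in this set were C15orf52 (16.1 and 17.98 against 6.64 and 7.70), C19orf55 (7.18 and 8.26 against 2.94 and 2.92), C4orf42, ABHD16B and LOC100506305, whose changes lay between -0.997 and -1.35 in both numbers. F8A1 had 17.99 and 47.6 under DMSO and 4.94 and 2.82 after THZ1, and it is uncertain. It exists in near-identical copies, so the counting could assign its reads to one copy or another, and its DMSO libraries differed strongly.

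Among immediate early genes, 18 of 31 were higher in both numbers and 10 lower, and the median of 0.27 stood 0.20 above that of all genes. The list median turned to -0.12 with the mitochondrial reference, which was 0.16 above that of all genes. Beside JUNB and IER5L above, the list held KLF2 and FOSL1 at its lower end. KLF2, a Krüppel-like factor, had 23.6 and 29.7 under DMSO and 11.99 and 18.1 after THZ1, groups apart and changes of -0.92 and -0.69. FOSL1, an AP-1 subunit induced by ERK signalling, had 224 and 252 under DMSO and 142 and 148 after THZ1, and the 2 groups did not overlap. MYC, whose message is short-lived, had 21.7 and 19.3 under DMSO and 23.9 and 22.6 after THZ1, and its change of 0.18 turned to -0.061 and -0.21 with the 2 references.

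ERK pathway output genes were higher in both numbers in 13 of 23 and lower in 3, with a median of 0.16 that turned to -0.078 and -0.22 with the references. SPRY4, an inhibitor of receptor signalling, had 16.8 and 11.7 under DMSO and 25.5 and 25.2 after THZ1, without overlap. FOSL1, in the same list, went the other way. DUSP5, a nuclear ERK phosphatase, had changes of 0.42 and 0.51 with overlapping groups. In the NF-kB and cytokine list 8 of 25 were higher and 11 lower, the median was -0.036, and that sign did not hold on leaving out each BCPAP library in turn (-0.046 to 0.047). RELB, a subunit of NF-kB, had 7.32 and 8.91 against 5.43 and 6.34, while the chemokine CXCL2 had 5.45 and 5.92 against 6.61 and 11.01. In the YAP and TEAD list 10 of 22 were higher and 10 lower. ANKRD1, a classical YAP target, had 17.1 and 21.5 under DMSO and 8.54 and 8.81 after THZ1, at about the lower end of the list with FJX1 (-0.97 and -0.91).

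The cell death and survival list held TNFRSF10D and FADD, given above, at its ends. Of 29 tested members 10 were higher in both numbers and 11 lower (34.5% and 37.9%), against 43.2% and 30.1% of all genes, with a median of -0.015. At its upper end, beside TNFRSF10D, stood PMAIP1 (NOXA), which neutralises MCL1, with 42.0 and 28.8 under DMSO and 71.2 and 54.2 after THZ1. At its lower end, beside FADD, stood TNFRSF12A, the receptor of TWEAK, with 153 and 105 against 90.6 and 70.2. The groups of both genes were apart.

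Of 22 p53 targets, 12 were higher in both numbers and 6 lower. CDKN1A, the inhibitor p21, had 11.7 and 13.7 under DMSO and 18.4 and 17.9 after THZ1, whereas the nuclease AEN had changes of -0.44 and -0.32 with overlapping groups. The list median of 0.16 turned to -0.027 and -0.17 with the references.

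Of 43 DNA repair genes 19 were lower in both numbers and 12 higher (44.2% and 27.9%, against 30.1% and 43.2% of all genes). Their median of -0.092 came from number 2 (-0.23) more than from number 1 (0.012), and leaving out each BCPAP library in turn it ranged from -0.34 to 0.11. BRCA1 had 10.5 and 7.30 under DMSO and 7.09 and 4.15 after THZ1, and FANCE of the Fanconi core complex 8.07 and 6.31 against 5.45 and 4.40; neither gene's groups overlapped. FANCA, of the same complex, went the other way, with 8.32 and 6.64 against 10.9 and 9.95.

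S-phase genes had 20 of 41 higher and 14 lower. GINS1, part of the replicative helicase, was the lowest, with 13.4 and 10.8 under DMSO and 6.30 and 3.11 after THZ1 (changes -0.98 and -1.52), followed by POLA2 of the primase complex (27.3 and 25.1 against 17.5 and 18.1). PCNA, the polymerase clamp, was higher, with 87.4 and 77.6 against 107 and 101, and turned to -0.067 with the mitochondrial reference. G2 and mitosis genes had 12 of 38 higher and 9 lower, with medians of 0.15 in number 1 and -0.072 in number 2. CENPI of the centromere (-0.52 and -0.49) and CCNB2, cyclin B2 (0.42 and 0.38), were at their ends.

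The thyroid transcription factors differed in direction. PAX8, which drives thyroid lineage genes, had 57.0 and 82.5 under DMSO and 30.8 and 42.5 after THZ1. Both THZ1 libraries lay below both DMSO libraries, with changes of -0.87 and -0.94. FOXE1, a forkhead factor needed for thyroid formation, had 10.2 and 14.4 under DMSO and 5.03 and 6.05 after THZ1, also without overlap and with changes of -0.90 and -1.13. HHEX, a homeobox factor of the thyroid bud, had 10.1 and 12.8 under DMSO and 18.1 and 30.5 after THZ1, above both DMSO libraries with changes of 0.78 and 1.20. NKX2-1, the fourth of them, had 30.3 and 50.8 against 34.8 and 54.9, with overlapping groups and changes of 0.19 and 0.11 that turned negative with either reference.

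Genes of interest to the study were lower in both numbers in each of the 3 cases, a direction that earlier results of these libraries had already shown. SMG9, a factor of nonsense-mediated decay, had 29.1 and 28.4 under DMSO and 15.4 and 15.998 after THZ1, without overlap and with changes of -0.88 and -0.79. PPP1R15A (GADD34), which directs dephosphorylation of eIF2 alpha, had 30.2 and 20.5 under DMSO and 21.8 and 15.5 after THZ1. Its groups overlapped, although the changes of -0.46 and -0.38 were alike. KLF2, given above, is the third.

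Stress genes went different ways. Of 33 genes of ER stress and ATF4, 17 were higher in both numbers and 8 lower, with a median of 0.15 that turned to -0.072 and -0.22 with the references. DDIT3 (CHOP), the death factor of this response, had 8.06 and 5.81 under DMSO and 4.79 and 2.78 after THZ1, and XBP1, the factor of the unfolded protein response, had 32.9 and 24.8 against 23.4 and 16.1; neither overlapped. CEBPG, a partner of ATF4, was higher without overlap (changes 0.46 and 0.54). Heat shock genes were higher in 21 of 28 and lower in 1, with a median of 0.24 that turned to -0.0050 and -0.14 with the references. It stood 0.18 above the median of all genes at the deposited scaling, and 0.14 above it with either reference. Glycolysis and hypoxia genes were higher in 29 of 35, with a median of 0.27 that turned to -0.13 with the mitochondrial reference. That was 0.21 above the median of all genes at the deposited scaling and 0.16 above it with the mitochondrial reference. NDRG1, a hypoxia marker, had 36.3 and 39.0 under DMSO and 56.6 and 52.9 after THZ1, whereas VEGFA had changes of -0.07 and -0.06. Among 22 NRF2 and metallothionein genes, 15 were higher and 3 lower, with a median of 0.27 that turned to -0.11 with the mitochondrial reference. That was 0.20 above the median of all genes at the deposited scaling and 0.17 above it with the mitochondrial reference. NQO1, a quinone reductase, had 22.4 and 18.2 against 28.7 and 30.8. Interferon response genes were lower in 14 of 31 and higher in 5. Of these IRF9, part of the factor that answers type I interferon, had 21.5 and 24.5 under DMSO and 14.5 and 13.4 after THZ1.

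Lists of abundant housekeeping messages had medians among the highest at the deposited scaling. Among genes with a mean of at least 5, 50.3% were higher in both numbers and 23.8% lower, with a median of 0.12. Of 78 cytosolic ribosomal protein genes, 55 were higher in both numbers and 2 lower (70.5% and 2.56%). Of 70 nuclear genes of the respiratory chain 49 were higher (70%) and 0 lower. The counts were 24 (77.4%) and 0 for 31 proteasome genes, and 13 and 0 for 13 mitochondrially encoded genes. These medians came mostly from number 2: they were 0.079 in number 1 and 0.58 in number 2 for ribosomal proteins, 0.086 and 0.54 for the respiratory chain, 0.12 and 0.45 for the proteasome and 0.20 and 0.55 for the mitochondrial genes. With the mitochondrial reference the medians of the first 3 lists turned to -0.072, -0.088 and -0.081. These were 0.21, 0.19 and 0.20 above the median of all genes. Without THZ1 library 2 the ribosomal protein median was -0.070, and without DMSO library 2 the mitochondrially encoded median was -0.12. RPL37 had 424 and 362 under DMSO and 515 and 551 after THZ1, and UQCRC2, a core subunit of complex III, 34.3 and 38.4 against 48.4 and 56.1.

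**Figure D3:**
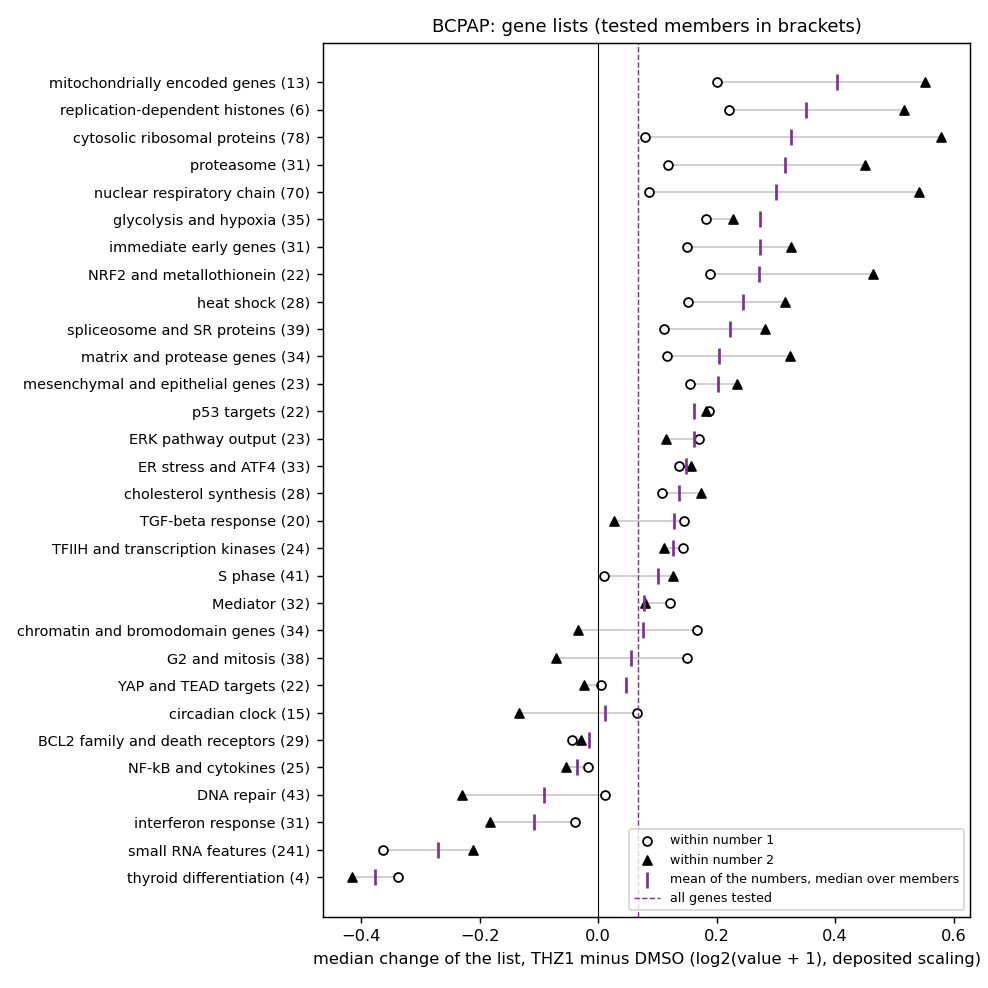
Median change of each gene list with at least 4 tested members in BCPAP, THZ1 minus DMSO in log2(value + 1) at the deposited scaling, within replicate number 1 (circles), within number 2 (triangles) and for the mean of the numbers (bars), with tested members in brackets; the dashed line is the median of all tested genes, 0.068. With mitochondrially encoded genes as reference 29 of the 31 list medians computed lay below 0, so the positive side of the axis is not fixed; the thyroid and small RNA lists lie lowest of those drawn, and the ribosomal protein and respiratory chain lists have their 2 symbols farthest apart among the longer lists.

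Gene length went with the change in opposite ways in the 2 numbers. Over 10 bins of the tested genes by recovered length, the median change in number 1 went from -0.040 in the shortest bin to 0.16 in the longest. In number 2 it went from 0.27 in the shortest to -0.0062 in the longest. The mean of the numbers stayed between 0.043 and 0.11 in all 10 bins. The ribosomal protein and respiratory chain lists are short (median lengths 808 and 926 bases against 2973 for all genes), and the part of length in their values was not tested.

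**Figure D4:**
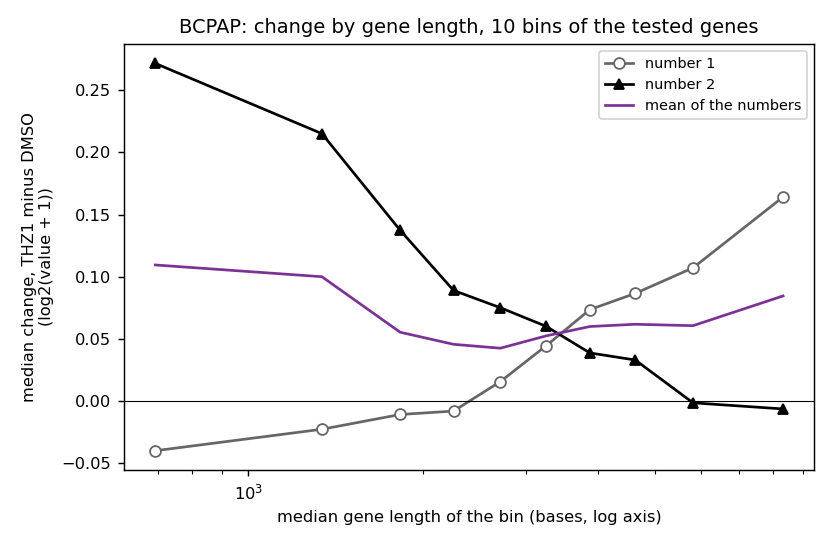
Median change of BCPAP genes after THZ1, in log2(value + 1), over 10 bins of the tested genes by length (log axis, bases), within replicate number 1, within number 2 and for their mean. The line of number 2 runs down from 0.27 to -0.0062 and that of number 1 runs up from -0.040 to 0.16, so that they cross.

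The spliceosome list had 26 of 39 higher and 5 lower in both numbers, with a median of 0.22 that turned to -0.023 and -0.17 with the references. With either reference the list median was 0.12 above that of all genes, against 0.15 at the deposited scaling. SRSF3, an SR protein whose own message can be spliced into an unstable form, was at its lower end with 80.1 and 83.1 under DMSO and 57.3 and 55.7 after THZ1, followed by SRSF1 (-0.40 and -0.34). Among clock genes, CRY1 was higher (6.19 and 7.96 against 9.603 and 14.2) and PER3 lower (6.76 and 7.85 against 4.58 and 3.90), both without overlap. In the matrix and protease list 25 of 34 were higher, led by SERPINE2 (107 and 103 against 146 and 160), while THBS1, thrombospondin, was lower (132 and 160 against 98.0 and 86.6); the list median of 0.20 turned to -0.045 and -0.19 with the references.

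Of 23 mesenchymal and epithelial genes 14 were higher in both numbers and 3 lower, with a median of 0.20 that turned to -0.047 and -0.19 with the references. ZEB1, a repressor of epithelial genes, had changes of 0.47 and 0.42 with overlapping groups. TGF-beta response genes (11 of 20 higher, 6 lower) had a median of 0.13, and cholesterol genes (20 of 28 higher, 4 lower) one of 0.14, and both turned negative with either reference. STARD4, a sterol carrier, had 8.30 and 8.90 against 12.4 and 12.8, without overlap. Of 34 chromatin and bromodomain genes 13 were higher and 6 lower, with medians of 0.17 in number 1 and -0.035 in number 2. EZH2, the methyltransferase of Polycomb, had 15.5 and 13.6 under DMSO and 24.4 and 17.5 after THZ1, while NSD1, which methylates histone H3, had 14.2 and 11.2 against 11.1 and 6.78. Both were without overlap. Of 49 replication-dependent histone genes, whose messages mostly lack a poly(A) tail, 6 were tested, of which 4 were higher in both numbers.

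Small RNA features (snoRNAs, microRNA precursors and other short RNAs) were lower in both numbers in 100 of 241 and higher in 40, or 41.5% and 16.6%, with a median of -0.27. Most rest on few reads, and the strand setting of the counting is not given in the sources used here, so reads of a host transcript cannot be told apart from theirs. MIR142 had 10 and 6 reads in the DMSO libraries against 0 and 0 in the THZ1 libraries. MIR570 had 14 and 14 reads against 3 and 3, MIR4712 9 and 11 against 2 and 3, and SNORD88B 45 and 32 against 15 and 5. At the other end RN28S1, the 28S ribosomal RNA, went from 88 and 300 reads (DMSO) to 614 and 4115 (THZ1). This RNA has no regular poly(A) tail, so its reads are what the selection let through. VTRNA1-2, SNORD74 and SNORD11 were higher on 18 reads or fewer in each library.

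Genes that passed the test in CAL-62 mostly had the same sign in BCPAP, at smaller size. The lines share no libraries, although the CAL-62 calls used a spread estimated over both. A gene whose BCPAP replicates lay close together was thus called more readily. That favours groups apart in BCPAP, so the shares of groups apart given here are not independent of the calls. Of 10478 genes tested in both lines, limma called 503 in CAL-62 (4.8%). Of the 438 called lower there, 389 were lower in both BCPAP numbers (88.8%, against 28.9% of all 10478), and in 333 both THZ1 libraries lay below both DMSO libraries (76.0%, against 15.8% of all 10478). Their median change was -0.37 in BCPAP number 1 and -0.61 in number 2, against -1.52 in CAL-62. Of the 65 called higher in CAL-62, 58 were higher in both BCPAP numbers (89.2%, against 45.0%), with a median of 0.40 against 0.98, and in 57 the groups were apart in that direction (87.7%, against 23.3%).

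In all 438 and all 65 the BCPAP change was nearer to 0 than the CAL-62 change, as it was in 76.0% of all 10478 genes. Since these genes were selected for a large change in CAL-62, a smaller one in BCPAP can follow from that choice. The test of the difference between the lines called 0 of 10478 genes (0%, limma; 549 at an unadjusted p under 0.05). FADD, for example, had -2.62 in CAL-62 and -1.25 in BCPAP (limma adjusted p of the difference 0.832). POLR2A (1.4998 and 1.31), NXF1 (1.45 and 1.51) and TOB1 (1.34 and 1.10) had changes of about one size in CAL-62 and BCPAP.

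**Figure D5:**
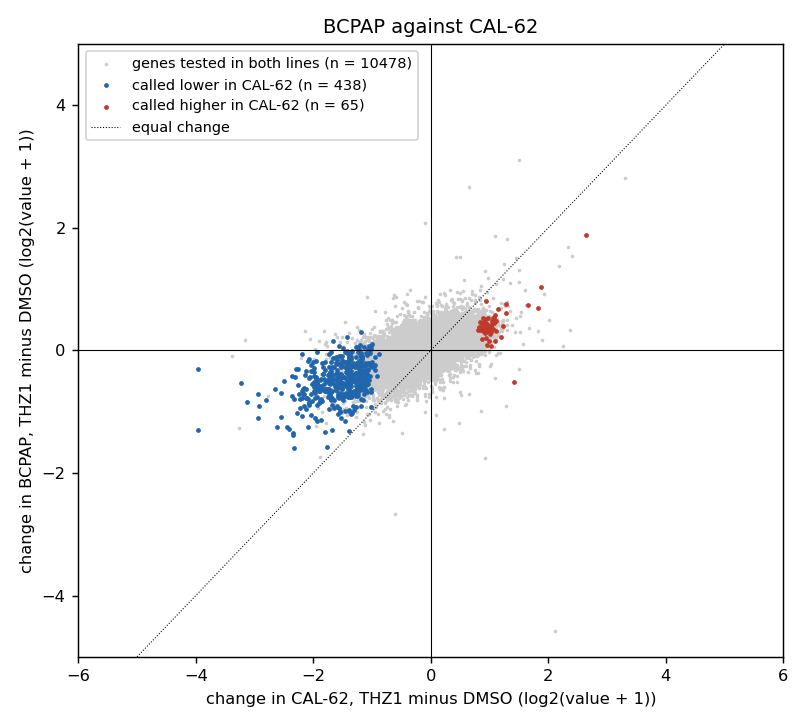
Mean change after THZ1 in CAL-62 (horizontal axis) and in BCPAP (vertical axis), in log2(value + 1), for 10478 genes tested in both lines. Blue and red mark the 438 genes called lower and the 65 called higher in CAL-62, all of which lie nearer to 0 in BCPAP, and the dotted line marks equal change.

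Genes with larger differences in BCPAP had fewer exons than others, and the lower ones shorter spans. These sets, at least 1.5-fold higher (87 genes) or lower (137 genes) in both numbers with a mean of at least 5, were drawn after the values were seen and are described without a test. By GENCODE 29 (GRCh38), the median number of exons was 7 in the higher and 6 in the lower set, against 10 over all such genes. Genes with 1 exon made up 15.2% of the lower set (19 of 125 with a gene model) and 7.41% of the higher (6 of 81), against 1.72% of all. The median genomic span was 12529 bases in the lower set, 36316 in the higher and 31491 in all. The sets also differed in level, with a median of 8.94 in the lower set, 12.3 in the higher and 16.6 in all. The part of level in these differences was not tested. MOCS3, ABHD16B, FJX1, FOXE1 and F8A1, all named above, are among the 19 lower genes with 1 exon.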

How the data were processed

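Poly(A)-selected RNA from 8 libraries was sequenced, per the labels' protocols. The authors deposited 1 RPKM-type value per gene and library; the unit was inferred from the values. Bowtie2, DESeq2 and hg19 are named in the submitters' processing notes, without roles or versions; annotation, strand setting: not given in the sources used here. Values were whole multiples of a per-gene step for 12715 of 12715 genes (tolerance 0.002 reads), which gave reads and gene lengths.

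As the files held normalized values and not counts, limma 3.58.1 (R 4.3.3; trend) was fitted to log2(value + 1) of all 8 libraries with 4 group means, genes with a mean of at least 1 in the line's 4 libraries, variances moderated together, two-sided Benjamini-Hochberg adjusted p, called under 0.05. The fit was also run on simulated reads. These had independent libraries and no difference between replicate numbers, so that run cannot speak to such a difference. Changes within a number used Python 3.11.15 and pandas 2.3.3. Alternatives were the pseudocount, filter, scaling, replicate block, robust moderation, limma-voom on recovered reads, and leaving out each library.

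Members and the 34 gene lists were chosen with earlier results of these data known. Named genes were those with a mean of at least 5 and groups that do not overlap, ranked by the within-number change nearer to 0 (12 each way), small RNA features by the same ranking (4 each way), CDK7, CDK12, CDK13, MYC, PPP1R15A, SMG9, KLF2 and POLR2A, and up to 2 members each way per list with 1 sign in both numbers and a mean of at least 5. No gene passed the test, so none was named for passing it. GTF2B was added by the promoter search, and CCNH, CCNT1, CCNT2 and MNAT1 after their values were seen. A few genes that the rule or the lists name are not reported here. Of 11900 symbols, 11157 had a GENCODE gene model and 9031 a RefSeq promoter.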

Additional observations from a re-analysis of the deposited data

How the results depend on the processing

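The count of 0 called genes in BCPAP held with other pseudocounts, filters, robust moderation, median-of-ratios scaling, ribosomal protein genes as reference and limma-voom. With mitochondrially encoded genes as reference 2 genes were called, both lower, MIR142 among them, and the difference between the lines called 1. That difference also called 1 gene, SNORD44, with a pseudocount of 0.1. Leaving out each library in turn gave 0 to 1 called genes in BCPAP; the 1 was RPSAP9, without BCPAP DMSO replicate 1, with 62.1 and 0.54 under DMSO and 71.4 and 98.8 after THZ1, and the lone DMSO library was then assumed to vary like the other groups. A replicate block within each line gave 0 calls (smallest limma adjusted p = 0.26, 2018 at an unadjusted p under 0.05), while the 4 BCPAP libraries alone with a replicate block gave 2527 calls, 1166 higher and 1361 lower. The labels do not say that the numbers pair the libraries, and there are only 2 same-numbered pairs; deviations of same-numbered libraries from their group means correlated at r = 0.780 across genes, and this is no design on which the 2527 can rest. The counts of genes at least 2-fold higher and lower in both numbers, 9 and 16, became 5 and 3 with a pseudocount of 5, 5 and 31 with the ribosomal protein reference, and 4 and 68 with the mitochondrial one; 31 were lower with a pseudocount of 0.1 and 28 with a mean of at least 1. The causes of these shifts were not tested. Of 137 named genes, 8 changed sign with the ribosomal protein reference, 20 with the mitochondrial one, 1 with median-of-ratios scaling and 5 to 9 on leaving out a BCPAP library. Of 31 list medians, 16, 23, 1 and 3 to 7 did. Small RNA features with under 20 reads are limited by depth.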

Other observations

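A few genes went opposite ways in the lines while being at least 1.5-fold apart in both BCPAP numbers. OGDH, the dehydrogenase of the citric acid cycle that acts on 2-oxoglutarate, had 15.6 and 15.2 against 8.94 and 9.64 (DMSO against THZ1) in BCPAP, but 24.6 and 19.7 against 32.7 and 30.8 in CAL-62. The difference of the responses was -1.18 (SE 0.28, limma adjusted p = 0.832). RNF19B, a ubiquitin ligase, had 9.38 and 7.79 against 18.4 and 15.4 in BCPAP and 5.12 and 7.21 against 3.81 and 3.35 in CAL-62, a difference of 1.53 (SE 0.35, limma adjusted p = 0.832). In both genes the THZ1 and DMSO libraries did not overlap in either line. LOC100652914 also went opposite ways. None of these differences passed the test.

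The 19 lower genes with 1 exon also included the arginine methyltransferase PRMT6, the RNA-binding protein RBM15B, the centromere protein CENPB, the transcription factors SOX12 and FOXL1, the lysosome-related organelle gene HPS6, the glycosyltransferase B3GALT6 and the membrane proteins TMEM203 and TMEM185B. PRMT6 had 15.8 and 14.9 under DMSO and 7.82 and 6.52 after THZ1, without overlap.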
